A study of Mus musculus with 4 samples.

Results

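Long noncoding RNAs of neural cells were followed in differentiated neural cultures from APPswe/PS1dE9 and wild-type (WT) mouse embryos. The 10 genes looked for were Malat1, Neat1, Miat, Snhg11, Rmst, Sox2ot, Dlx6os1, Gas5, Snhg1 and Pvt1, and a probe counted as theirs when the array named it by a RefSeq accession of the gene. That rule found probes for 5 of the 10 genes, 6 of the 55681 probes on the array, with 1 each for Malat1, Neat1, Dlx6os1 and Snhg1 and 2 for Pvt1. The Pvt1 probes, A_55_P2051254 and A_55_P2155654, carry the same accession and so share a target. Miat, Snhg11, Rmst, Sox2ot and Gas5 had no probe by this rule and are not analysed here. All 6 probes were well above background in all cultures of both genotypes, so none was lost to the filter on dim probes, which kept 26898 probes.

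The APPswe/PS1dE9 embryos carried transgenes for the Swedish form of amyloid precursor protein and for a presenilin 1 with a deleted exon, both tied to familial Alzheimer's disease, and the WT embryos did not. All cultures were C57BL/6 and were treated alike: telencephalic precursors of embryonic day 13 formed neurospheres in EGF and FGF2 over 5 days and then differentiated without these factors for 7 days. The sources used here do not name the promoters of the transgenes. Each of 4 two-colour arrays compared 1 APPswe/PS1dE9 RNA with 1 WT RNA, with APPswe/PS1dE9 labelled with Cy3 for replicates 1 and 2 and with Cy5 for replicates 3 and 4. The design calls the 4 RNAs of a genotype biological replicates but does not tie them to animals or litters, so the spread behind the p-values is that among these arrays and may be partly technical.

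Long noncoding RNAs are transcripts that are not translated and that act, where a role is known, as RNA. Neat1 is the scaffold of paraspeckles, nuclear bodies that hold RNA-binding proteins, and Malat1 is an abundant RNA of nuclear speckles, which store splicing factors. Dlx6os1, also called Evf2, is made in the embryonic ventral forebrain from the Dlx5/6 locus and in mice takes part in the control of Dlx5, Dlx6 and Gad1 in developing interneurons. Snhg1 is a host gene whose introns yield small nucleolar RNAs (snoRNAs) while its spliced exons are open to nonsense-mediated decay, and Pvt1 lies beside the growth regulator Myc.

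Values below are of 2 kinds. Levels are normalized channel intensities in arbitrary units, 1 per culture, and are compared only within a probe or as sums over the same probes of a list. Such sums weigh bright probes most. Ratios are log2 ratios of APPswe/PS1dE9 over WT, fitted over the 4 arrays with limma together with a dye term and given ± SE, and a call means a Benjamini-Hochberg adjusted p under 0.05 over all kept probes. A difference between the dye orientations goes into the dye term and not into the SE. The SE reflects the scatter within an orientation, moderated by limma towards that of all kept probes (prior of 4.16 against 2 residual degrees of freedom). The Spearman correlation of the ratios over the kept probes was 0.54 and 0.46 between arrays of the same orientation and 0.10 to 0.25 between arrays of different orientation. Depending on the array and channel, 47.5% to 59.6% of spots exceeded background clearly, and saturation was not seen in any spot. On replicate 1 the APPswe/PS1dE9 culture had the Y-linked transcript Eif2s3y and no Xist well above background while the WT culture had the opposite, and on replicate 3 this was the other way round. On replicates 2 and 4 both cultures had Xist and neither had Eif2s3y, and these are called the same-sex arrays below. In bulk RNA, fewer cells of a type and less RNA per cell cannot be told apart.

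Of the 6 probes, 2 were called higher in APPswe/PS1dE9 cultures, those of Neat1 and of Pvt1 (A_55_P2051254), and 1 was called lower, that of Dlx6os1. Over the whole array 6.89% of the kept probes were called higher and 1.9% lower, 8.79% in either direction. The levels of both genotypes did not overlap for 2 of the 6 probes, Neat1 and Dlx6os1, against 11.7% of all probes with a level in every culture. Among the 305 kept probes of RefSeq long noncoding RNAs, 3.61% were called higher and 2.62% lower, 6.23% in either direction. Among the called probes of the array, the share called higher depended on the scaling: it was 78.3% here and 48.2% when each array was centred on its median in place of loess.

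**Figure D1:**
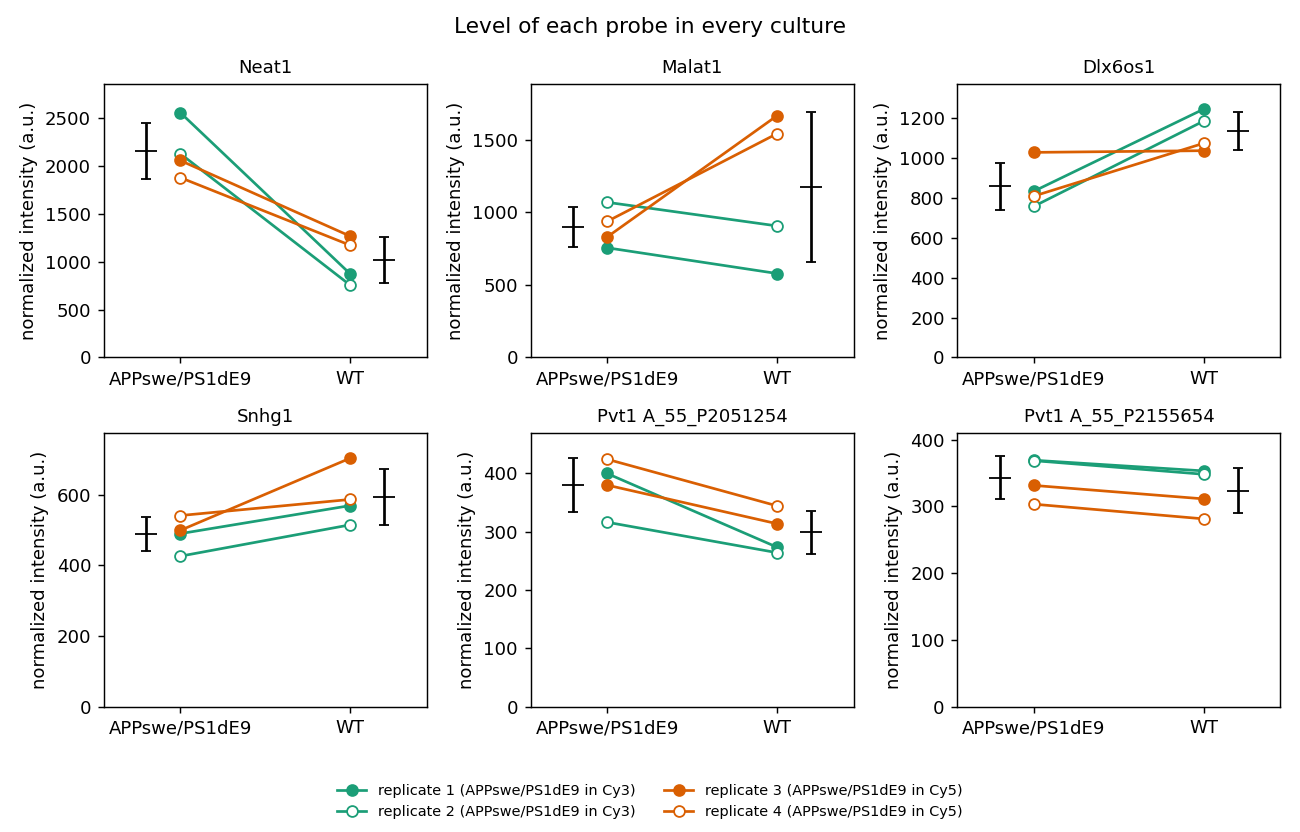
Normalized intensity (arbitrary units) of each probe in every culture, with APPswe/PS1dE9 on the left and WT on the right; a line joins the cultures of 1 array, colour gives the dye orientation, and the black bars beside them are mean ± SD (n = 4). Neat1 lies between 1880 and 2559 in APPswe/PS1dE9 cultures, above every WT culture, whereas the Malat1 lines slope in opposite directions in the 2 orientations.

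Neat1 was the member that differed most. Its probe (A_51_P234692, chromosome 19) read 2559, 2130, 2058 and 1880 in the APPswe/PS1dE9 cultures, against 872, 755, 1267 and 1172 in the WT cultures of the same arrays. Every APPswe/PS1dE9 culture was above every WT culture, and the lowest of them, 1880, was well clear of the highest WT level, 1267. The means were 2157 ± 288 in APPswe/PS1dE9 and 1016 ± 242 in WT cultures (SD, n = 4 each). The fitted ratio was 1.11 ± 0.06 with a 95% interval of 0.96 to 1.25, a 2.16-fold higher level (adjusted p = 0.000404), higher on 4 of 4 arrays. That ratio was the 186th highest of the 26898 kept probes and the highest of the 305 long noncoding RNA probes.

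The size of the Neat1 difference was not the same in the 2 dye orientations. The log2 ratios were 1.55 and 1.50 on replicates 1 and 2 and 0.70 and 0.68 on replicates 3 and 4. The dye term of the limma fit was -0.42, with an unadjusted p of 0.00041. Its adjusted p was 0.144, so it did not pass the threshold. No probe of the array passed for the dye term after adjustment in limma, while 3940 of them, 14.6%, had an unadjusted p under 0.05. On the same-sex arrays alone Neat1 stood at 1.09 (adjusted p = 0.0565), and this was the single setting without a call for Neat1.

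**Figure D2:**
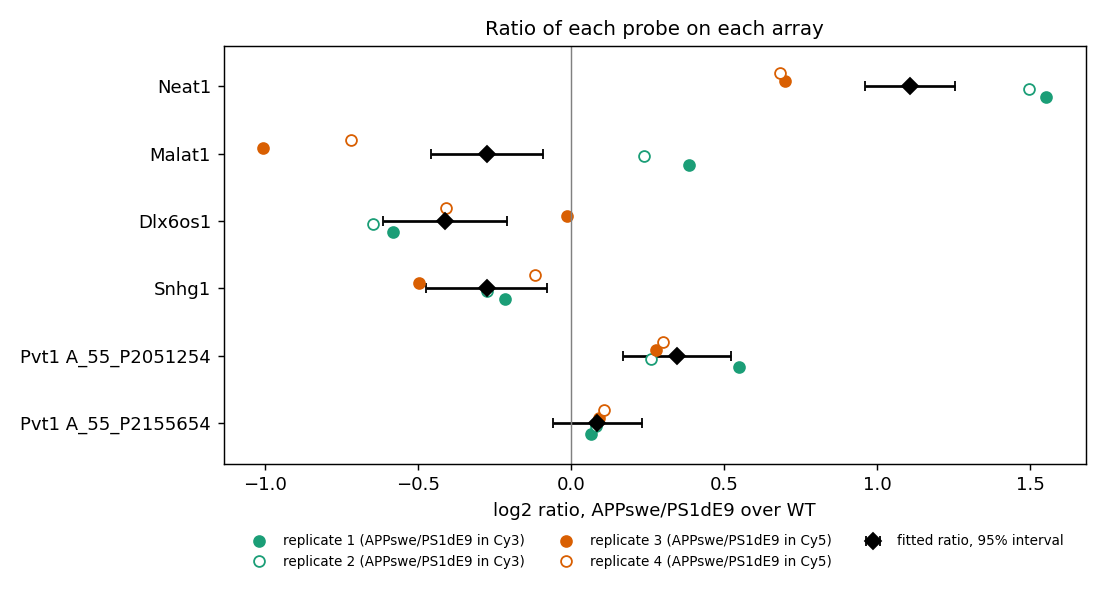
Log2 ratio of APPswe/PS1dE9 over WT (x axis) of each probe (rows) on each array, coloured by dye orientation, with the fitted ratio and its 95% interval as a black diamond and bar. The 4 Neat1 points lie from 0.68 to 1.55, the 4 Malat1 points lie on both sides of 0, and the second Pvt1 probe holds its points between 0.06 and 0.11.

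Malat1, the neighbour of Neat1 on chromosome 19, did not pass the test (A_55_P2021187, -0.28 ± 0.08, adjusted p = 0.0819). Its levels were 757, 1070, 830 and 938 in APPswe/PS1dE9 cultures, against 579, 907, 1668 and 1544 in WT cultures. The APPswe/PS1dE9 levels lay within the range of the WT levels, and the WT cultures of replicates 3 and 4, labelled with Cy3, were the high ones. The ratios were 0.39 and 0.24 on replicates 1 and 2 and -1.01 and -0.72 on replicates 3 and 4, so the sign turned with the dye orientation. A turn of sign between the orientations on all 4 arrays was seen in 18.3% of the kept probes. The dye term of Malat1 in the limma fit was -0.59, with an unadjusted p of 0.00021 and an adjusted p of 0.144. The fitted value of -0.28 is thus the middle of an orientation mean of 0.31 and one of -0.86, and no single direction describes Malat1 in these cultures. With median centring in place of loess its value was -0.37 and passed (adjusted p = 0.0211).

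Among the protein genes around Neat1 and Malat1, Frmd8 was called higher. Frmd8, which encodes an adaptor of the iRhom and ADAM17 sheddase complex, is the next protein-coding gene on one side of the pair (0.37 ± 0.07, adjusted p = 0.0266). Of other genes nearby, which were looked up after the values were seen, Ltbp3, a binding protein of latent TGF-beta, was called higher (0.45 ± 0.07, adjusted p = 0.0118), and Slc25a45 was at 0.22 ± 0.06 (adjusted p = 0.0997). Frmd8 was at 5336, 4560, 4318 and 4071 in APPswe/PS1dE9 cultures, against 4177, 3351, 3674 and 2951 in WT cultures. Those levels overlapped between the genotypes although the ratio was above 0 on 4 of 4 arrays. The Frmd8 call ended when replicate 3 (adjusted p = 0.0910) or replicate 4 (adjusted p = 0.154) was left out and with median centring (0.21, adjusted p = 0.236).

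Transcripts of paraspeckle proteins stood on the other side of 0 from their RNA scaffold. All 18 genes of the list were measured, 4 were called lower, none was called higher and 14 did not pass. At an unadjusted p under 0.05, 11 were lower and 0 higher. The share of all named genes at that unadjusted threshold was not computed, here or for the lists below. Such unadjusted counts therefore have no array-wide rate to be read against. Among the 13669 named genes 2.16% were called lower and 10.2% higher. The list median was -0.21, against 0.01 for all named genes. By the brightest kept probe of each gene, all 18 fitted ratios were below 0, and 13 genes were below 0 on all 4 arrays. Among all named genes 46.1% were below 0 and 12.7% were so on all arrays. Another kept probe of Tardbp was at 0.06 and another of Srsf10 at 0.03, while the remaining other probes of the list were below 0. The list median remained below 0 under the settings tried for lists and with each array left out, from -0.37 with median centring to -0.20. With median centring the median of all kept probes was itself -0.07, against 0.01 in the main fit. List medians were not computed with loess and Aquantile, with array weights, from the deposited table or on the same-sex arrays.

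The 4 genes called lower were Sfpq (-0.42 ± 0.07, adjusted p = 0.0236) and Rbm14 (-0.32 ± 0.07, adjusted p = 0.0371), which encode proteins needed for paraspeckle assembly, and the heterogeneous nuclear ribonucleoprotein genes Hnrnpa1 (-0.36 ± 0.07, adjusted p = 0.0283) and Hnrnph3 (-0.34 ± 0.06, adjusted p = 0.0232). Rbm14 was named after the values were seen. Sfpq was at 3077, 3639, 3114 and 2984 in APPswe/PS1dE9 cultures, against 4180, 4004, 4439 and 4438 in WT cultures, with no overlap, and its other probe was at -0.37. The core partners Nono (-0.21 ± 0.07, adjusted p = 0.110) and Pspc1 (-0.22 ± 0.07, adjusted p = 0.134), picked out after their values were seen, did not pass. The summed level of the list was 86930 to 98239 in APPswe/PS1dE9 cultures and 103651 to 106542 in WT cultures, so that the ranges did not overlap. Without replicate 3 the adjusted p was 0.136 for Sfpq, 0.128 for Hnrnpa1 and 0.128 for Hnrnph3, and without replicate 4 it was 0.162, 0.168 and 0.135, and none of the 18 genes passed in limma in either case. None passed with Feature Extraction's processed signals either, where the list median was -0.21 and the median of all kept probes was -0.08.

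Nuclear speckle proteins, the protein side of the Malat1 compartment, gave 2 lower, 0 higher and 14 not passing among 16 measured genes, with a median of -0.14 (7 lower and 0 higher at an unadjusted p under 0.05). Fitted ratios were below 0 for 14 of the 16 genes, and 7 genes were below 0 on all 4 arrays. Sf3b1, a core subunit of the U2 splicing particle, was lower at -0.38 ± 0.06 (adjusted p = 0.0171), and the splicing kinase gene Prpf4b was lower at -0.28 ± 0.06 (adjusted p = 0.0432) with its other probe at -0.03. The splicing factor gene Srsf3 was at -0.25 ± 0.06 (adjusted p = 0.0590). Sf3b1 levels were 1223, 1293, 1206 and 1287 in APPswe/PS1dE9 cultures and 1487, 1658, 1654 and 1711 in WT cultures, with no overlap. Neither call held without replicate 3 (adjusted p = 0.114 for Sf3b1 and 0.173 for Prpf4b) or without replicate 4 (adjusted p = 0.119 and 0.161), and Prpf4b also lost its call when replicate 1 (adjusted p = 0.0597) or 2 (adjusted p = 0.0991) was left out.

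**Figure D3:**
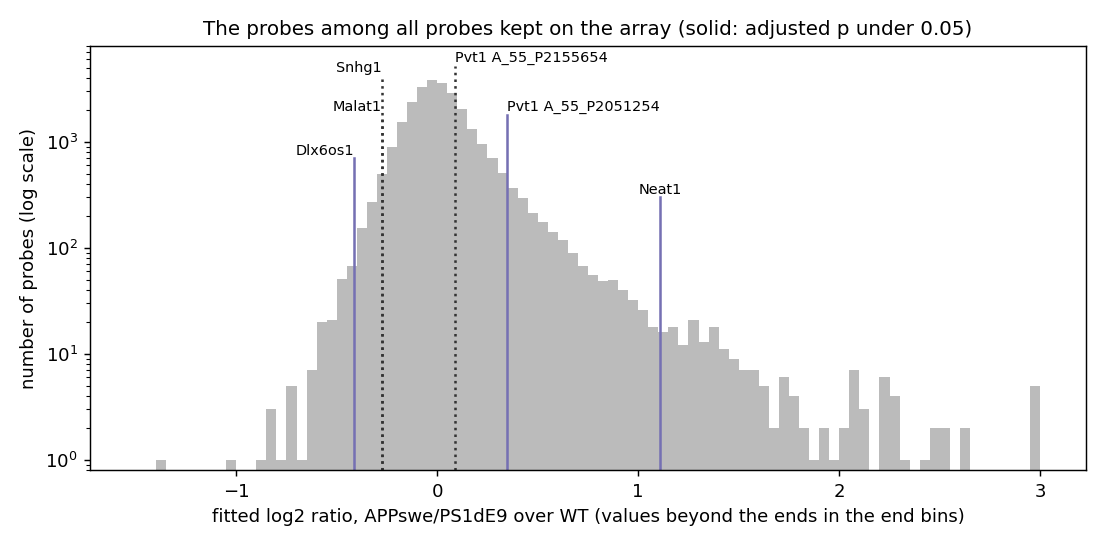
Number of kept probes (y axis, log scale) by fitted log2 ratio of APPswe/PS1dE9 over WT (x axis), with the 6 probes marked as solid lines where called and dotted lines where not. Neat1 at 1.11 lies in the sparse right tail, Dlx6os1 at -0.41 in the left tail, and Malat1 and Snhg1 share a place at -0.28.

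Dlx6os1 was the member called lower. Its probe (A_52_P112463, chromosome 6) read 834, 759, 1029 and 810 in APPswe/PS1dE9 cultures, against 1247, 1187, 1038 and 1075 in WT cultures. The groups did not overlap, though only narrowly, since replicate 3 had 1029 in the APPswe/PS1dE9 and 1038 in the WT culture. The means were 858 ± 118 and 1137 ± 97.0 (SD, n = 4 each). The ratio was -0.41 ± 0.08 with a 95% interval of -0.61 to -0.21 (adjusted p = 0.0340), below 0 on 4 of 4 arrays at -0.58, -0.65, -0.01 and -0.41. It was the 160th lowest of all kept probes and the 5th lowest of the 305 long noncoding RNA probes. The Dlx6os1 call was lost when replicate 3 (-0.51, adjusted p = 0.0689) or replicate 4 (-0.31, adjusted p = 0.152) was left out, and the same-sex arrays gave -0.53 (adjusted p = 0.155). It was kept in 6 of 12 processing and array choices, and Feature Extraction's processed signals gave -0.48 (adjusted p = 0.0844).

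The homeobox genes of the Dlx family, which drive the making of forebrain interneurons, were lower as well. Dlx1 was at 2919, 2731, 2926 and 2860 in APPswe/PS1dE9 cultures, against 4412, 4376, 3794 and 4664 in WT cultures (-0.59 ± 0.08, adjusted p = 0.0084). Dlx5, which shares the locus of Dlx6os1, was at 811, 833, 806 and 837 in APPswe/PS1dE9 cultures, against 1061, 1205, 1015 and 1180 in WT cultures (-0.44 ± 0.07, adjusted p = 0.0144). Both genes were lower in each APPswe/PS1dE9 culture than in any WT culture. Dlx2 was called lower too (-0.40 ± 0.08, adjusted p = 0.0305), while Dlx6, which Dlx6os1 overlaps in antisense, was at -0.27 ± 0.07 and did not pass (adjusted p = 0.0817). Leaving out replicate 4 ended the calls of Dlx1 (adjusted p = 0.0797), Dlx5 (adjusted p = 0.126) and Dlx2 (adjusted p = 0.156), and leaving out replicate 3 ended those of Dlx5 (adjusted p = 0.0853) and Dlx2 (adjusted p = 0.0810). On the other side of Dlx6os1, Sem1 was at -0.03 ± 0.07 and Slc25a13 was at 0.01 ± 0.09, both looked up after the values were seen.

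Gad1, the GABA-making enzyme gene whose control Dlx6os1 takes part in, did not share that direction. It was at 3235, 3974, 4773 and 4289 in APPswe/PS1dE9 cultures, against 3368, 3469, 2646 and 3405 in WT cultures. The levels overlapped, and the ratio of 0.33 ± 0.10 did not pass (adjusted p = 0.109), although it did without replicate 1 (0.39, adjusted p = 0.0305). Dlx1as, the antisense RNA of the other Dlx pair, was at -0.10 ± 0.06 (adjusted p = 0.386) and is named after its value was seen.

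**Figure D4:**
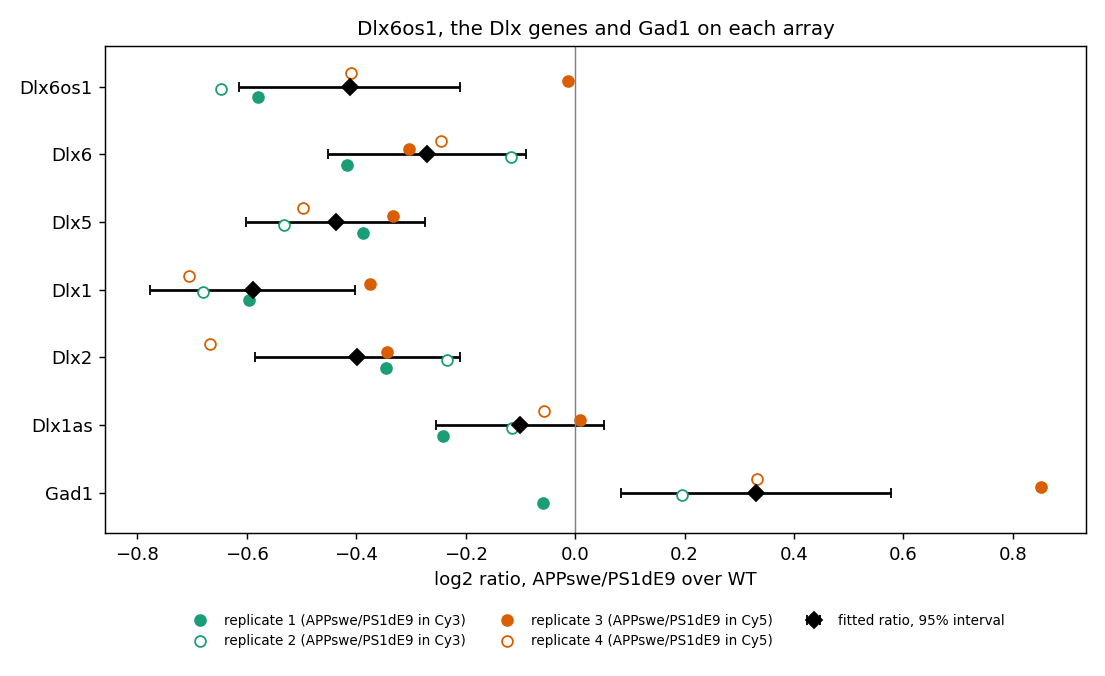
Log2 ratio of APPswe/PS1dE9 over WT (x axis) of Dlx6os1, the Dlx genes, Dlx1as and Gad1 (rows) on each array, coloured by dye orientation, with the fitted ratio and its 95% interval in black. All 4 arrays lie below 0 for Dlx6os1, Dlx6, Dlx5, Dlx1 and Dlx2, whereas Gad1 lies at 0.33 with 1 array below 0.

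The start regions of Dlx6os1 are shown because DLX proteins are homeodomain factors whose binding sites hold the core TAATT and because the gene and its Dlx neighbours lay on the same side of 0. RefSeq (GRCm38.p6) gives 2 start windows of 300 bases, both on the minus strand of chromosome 6. Capitals mark TAATT or its reverse complement AATTA, and runs that overlap are joined.
Dlx6os1 chr6:6869484-6869783: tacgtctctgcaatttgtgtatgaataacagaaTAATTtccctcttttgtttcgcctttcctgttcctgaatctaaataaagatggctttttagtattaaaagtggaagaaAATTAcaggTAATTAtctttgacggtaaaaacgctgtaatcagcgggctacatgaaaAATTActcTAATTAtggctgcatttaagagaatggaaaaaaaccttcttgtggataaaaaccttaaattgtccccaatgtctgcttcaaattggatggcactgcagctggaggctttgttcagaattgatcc
Dlx6os1 chr6:6861634-6861933: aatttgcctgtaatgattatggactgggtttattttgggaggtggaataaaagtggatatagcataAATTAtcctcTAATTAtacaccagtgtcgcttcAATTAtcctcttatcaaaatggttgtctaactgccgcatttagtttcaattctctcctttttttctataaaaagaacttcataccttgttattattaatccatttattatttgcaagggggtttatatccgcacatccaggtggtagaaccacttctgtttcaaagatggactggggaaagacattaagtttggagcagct

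The first window held 5 separate runs of the core and the second held 3. Of 32851 RefSeq start windows of the same length 27% held TAATT on either strand, and 0.167% held at least as many runs as the first window and 2.23% as many as the second. The palindrome TAATTA, which contains both forms of the core, occurred 2 times in the first window and 1 time in the second, and 5.29% of all windows held it. The windows of Dlx1 and Dlx2 held 0 of either, and windows of Dlx5 and Dlx6, the Dlx genes beside Dlx6os1, were not counted. These matches describe letters in a window and were not measured as binding. The shares over all windows were not matched for base composition. The windows of Malat1 and Snhg1 were not counted singly, and no window was given for Neat1 or Pvt1.

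Snhg1 was lower on 4 of 4 arrays without passing the test (A_55_P2117710, chromosome 19). Its levels were 489, 426, 499 and 541 in APPswe/PS1dE9 cultures, against 569, 514, 703 and 586 in WT cultures. They overlapped in a single stretch, since the highest APPswe/PS1dE9 level, 541, exceeded the lowest WT level, 514. The ratio was -0.28 ± 0.08 with a 95% interval of -0.47 to -0.08 (adjusted p = 0.0974), and with median centring it was -0.35 and passed (adjusted p = 0.0324). Its neighbour Slc3a2, the heavy chain of amino acid transporters, was at 0.29 ± 0.07 (adjusted p = 0.0505) and passed without replicate 1 (0.34, adjusted p = 0.0281). Of the neighbours looked up after the values were seen, Chrm1, a muscarinic acetylcholine receptor gene, was called higher (0.43 ± 0.07, adjusted p = 0.0152), and Wdr74, a ribosome assembly factor gene, was at -0.11 ± 0.07.

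Other host genes of snoRNAs were mostly near 0. Of 17 listed, 10 were measured, 1 was called lower, 0 higher and 9 neither (2 lower and 0 higher at an unadjusted p under 0.05), with a median of -0.03. Snhg5 was the one called, at 268, 226, 201 and 251 in APPswe/PS1dE9 cultures, against 300, 322, 347 and 327 in WT cultures (-0.46 ± 0.10, adjusted p = 0.0397). Its groups did not overlap, but leaving out replicate 3 (-0.36, adjusted p = 0.194) or replicate 4 (-0.56, adjusted p = 0.118) ended its call. Snhg17 (-0.18 ± 0.06, adjusted p = 0.133) and Snhg16 (-0.20 ± 0.09, adjusted p = 0.224) did not pass.

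Nonsense-mediated decay clears many spliced host transcripts, and its 10 factor genes were measured with 1 called higher, 0 lower and 9 not passing, at a median of 0.03. The one called was Smg8, a subunit of the SMG1 kinase complex (0.31 ± 0.07, adjusted p = 0.0456). Its array ratios were 0.84 and 0.65 on replicates 1 and 2 and -0.18 and -0.09 on replicates 3 and 4, so the call stands for no single direction. It did not pass without the dye term (adjusted p = 0.40), without replicate 1 (adjusted p = 0.0976), 3 (adjusted p = 0.160) or 4 (adjusted p = 0.195), or with median centring (adjusted p = 0.296). The helicase gene Upf1 (0.07 ± 0.07) and Upf2 (0.11 ± 0.07, adjusted p = 0.402) did not pass.

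The 2 Pvt1 probes on chromosome 15 gave unequal ratios. Probe A_55_P2051254 read 400, 316, 380 and 424 in APPswe/PS1dE9 cultures, against 274, 264, 314 and 344 in WT cultures. The APPswe/PS1dE9 culture was the higher on every array, at ratios of 0.55, 0.26, 0.28 and 0.30, while the levels overlapped between the genotypes. The fitted ratio was 0.35 ± 0.07 (95% interval 0.17 to 0.52, adjusted p = 0.0386), a 1.27-fold higher level. The call was lost when replicate 1 (0.27, adjusted p = 0.0729), replicate 3 (0.35, adjusted p = 0.173) or replicate 4 (0.34, adjusted p = 0.187) was left out. It was kept in 5 of 12 processing and array choices, and Feature Extraction's processed signals gave 0.27 (adjusted p = 0.260).

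Probe A_55_P2155654 read 369, 369, 331 and 303 in APPswe/PS1dE9 cultures, against 353, 348, 311 and 281 in WT cultures. Its ratios of 0.06, 0.08, 0.09 and 0.11 were all above 0, and the fit of 0.09 ± 0.06 did not pass (95% interval -0.06 to 0.23, adjusted p = 0.434). The intervals of both probes overlapped, the difference between them was not tested, and the stretch of the transcript that each covers was not given in the sources used here. Myc, the neighbour of Pvt1, was at 1247, 1068, 988 and 1055 in APPswe/PS1dE9 cultures, against 1214, 1201, 1044 and 1009 in WT cultures (-0.04 ± 0.07, adjusted p = 0.791, 95% interval -0.21 to 0.13). Gsdmc on the other side of Pvt1, a neighbour looked up after the values were seen, was at 0.12 ± 0.09, with the WT signal well above background on 2 of 4 arrays.

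The list of neighbours and partners covers all 10 genes. Of its 23 entries 20 were measured, and 1 was called higher (Frmd8), 3 were called lower (Dlx1, Dlx5 and Dlx2) and 16 did not pass, at a median of 0.02. Celf3, an RNA-binding protein known to bind Miat, was at 2977, 2431, 2618 and 3025 in APPswe/PS1dE9 cultures, against 3187, 3737, 4138 and 3880 in WT cultures. These groups did not overlap, and the ratio was -0.43 ± 0.10 (adjusted p = 0.0578), which passed without replicate 1 (-0.57, adjusted p = 0.00143) and with median centring (-0.58, adjusted p = 0.000191). The other Miat partners Sf1 (-0.11) and Qk (0.06) and its neighbour Cryba4 (0.02, its WT signal clear of background on 2 of 4 arrays) did not pass. Nor did Sox2 (-0.12), the stem cell factor whose gene lies within Sox2ot, Nedd1 (0.06), the neighbour of Rmst, or the splicing regulator gene Ptbp1 (0.16). Around Gas5, the neighbour Zbtb37 (0.04) and the glucocorticoid receptor gene Nr3c1 (0.14), whose protein the Gas5 RNA binds in human cells, did not pass. Crybb1 and Neurog2 did not pass the filter, and Ralgapb had no probe by accession.

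**Figure D5:**
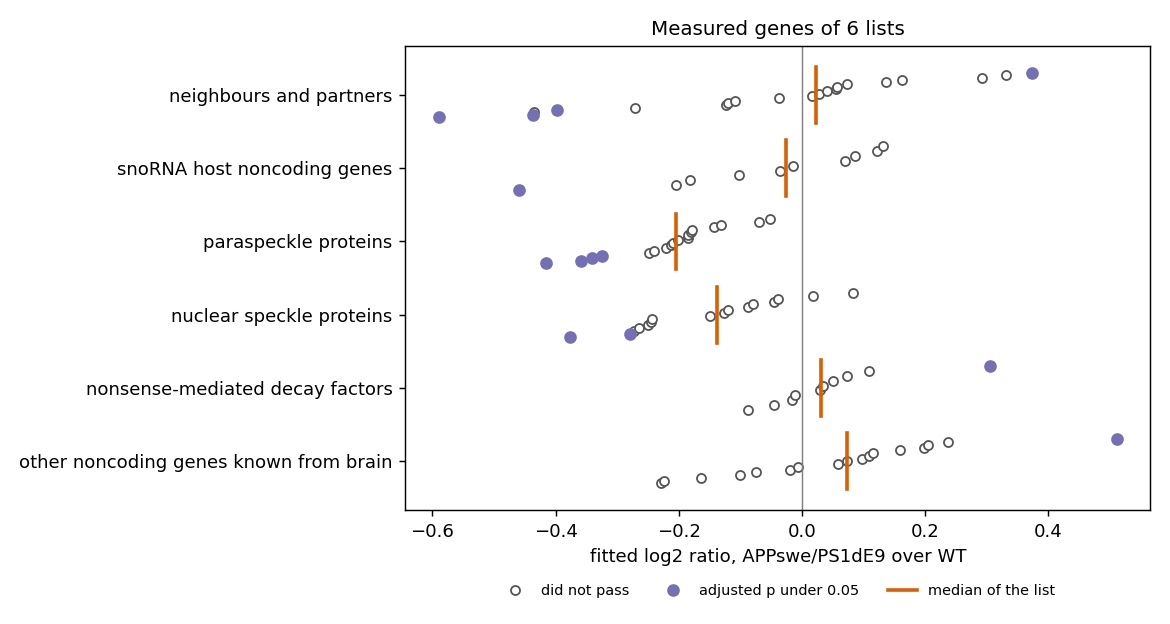
Fitted log2 ratio of APPswe/PS1dE9 over WT (x axis) of the measured genes of 6 lists (rows), filled where the adjusted p was under 0.05, with the list median as an orange line. All 18 paraspeckle genes lie below 0 around a median of -0.21, and the other 5 medians lie between -0.14 and 0.07.

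Of 26 other noncoding genes known from brain, 17 were measured, 1 was called higher, 0 lower and 16 neither, at a median of 0.07 (3 higher and 3 lower at an unadjusted p under 0.05). The one called was Mir17hg, the host of the miR-17 cluster, at 508, 360, 492 and 451 in APPswe/PS1dE9 cultures, against 479, 349, 281 and 211 in WT cultures (0.51 ± 0.07, adjusted p = 0.0112). Its ratios were 0.09 and 0.05 on replicates 1 and 2 and 0.81 and 1.1 on replicates 3 and 4, so the difference was carried by one dye orientation. It did not pass without the dye term (adjusted p = 0.156), without replicate 3 (adjusted p = 0.0542) or without replicate 4 (adjusted p = 0.0997). The imprinted Peg13 (-0.23 ± 0.07, adjusted p = 0.0965) and Ftx (-0.22 ± 0.07, adjusted p = 0.122), a regulator of X inactivation, did not pass.

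The cell types of the cultures were read from fixed markers, since the members are made in several of them. Tubb3, the neuronal tubulin gene, was at 32606 ± 3067 in APPswe/PS1dE9 and 35668 ± 2784 in WT cultures (SD, n = 4 each). All 9 neuron markers passed the filter on dim probes, and of these 3 were called lower (Dcx, Nefl and Nefm) and 1 higher (Syt1), with summed levels of 87701 to 101199 in APPswe/PS1dE9 and 96192 to 114221 in WT cultures. Of 12 GABAergic markers, 5 were lower, among them the 3 Dlx genes above and Calb2, and 2 were higher, the neuropeptide genes Npy (1.29 ± 0.06) and Sst (0.81 ± 0.07). Their summed level was 39411 to 48482 in APPswe/PS1dE9 and 39383 to 47401 in WT cultures, so the ranges overlapped. The part of neuron numbers and types in the Dlx6os1 ratio was not tested.

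Markers of microglia and macrophages were higher in 7 of 8 measured genes, at a median ratio of 2.14 (range 0.11 to 2.52). Their summed level was 11708 to 15593 in APPswe/PS1dE9 and 8459 to 10572 in WT cultures. The WT signal of Tyrobp, C1qa and Ctss was well above background on 1 of 4 arrays. These genes thus passed the filter on dim probes through their APPswe/PS1dE9 signal alone, and the median ratio and the sums include them. Astrocyte markers were higher in 4 of 8 genes at a median ratio of 0.37, with sums of 139727 to 154433 in APPswe/PS1dE9 and 101188 to 123812 in WT cultures. Choroid plexus and ependyma markers were higher in 6 of 6 at a median ratio of 1.21, with sums of 9732 to 14184 in APPswe/PS1dE9 and 5070 to 5964 in WT cultures. These 3 sums did not overlap between the genotypes and moved in the direction of Neat1, and their part in the Neat1 ratio was not tested. Markers of endothelial cells were higher in 1 of 3, and those of fibroblasts and mural cells lower in 2 of 6. For neural progenitors 1 of 8 was higher and 1 lower, and for the oligodendrocyte lineage (8 genes) and dividing cells (6 genes) 0 were called in limma (at an unadjusted p under 0.05, 1 higher and 1 lower in the oligodendrocyte lineage and 0 for dividing cells).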

How the data were processed

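RNA from 4 APPswe/PS1dE9 and 4 WT cultures was measured on 4 two-colour Agilent arrays, which lay on 1 slide with 1 scan per the file headers, where the software is Feature Extraction 11.0.1.1 and the annotation mm9. Per the labels' protocols, 100 ng of RNA was amplified and labelled. Median foreground and local background intensity per spot was deposited without normalization, and so was a processed intensity, corrected for background and dye by the scanner software per the file headers, with its log10 ratio of both dyes. The authors' value table, set against the scanner files, held log2 ratios of the processed signals as APPswe/PS1dE9 over WT with no centring. The column medians of this deposited log2 table were -0.0797, -0.155, -0.0373 and -0.0378.

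Median signals were corrected by normexp with an offset of 50 and loess-normalized within each array in limma 3.58.1 (R 4.3.3), with control and outlier spots at weight 0, and spots of a probe were averaged. Probes were kept when well above background for either genotype on at least 3 of 4 arrays (26898 of 55681). The offset draws ratios of dim probes towards 0. Ratios were fitted by lmFit and eBayes to genotype and dye terms, leaving 2 residual degrees of freedom, and tested two-sided, with Benjamini-Hochberg adjustment over all kept probes at 0.05. The fit was tested on simulated ratios with known changes and independent noise of the fit's own spread. Such data cannot show how sound the calls on these arrays are. Levels are channel intensities after loess and Aquantile. A gene of a list stands for its kept probe of highest mean intensity. Accessions were named through a RefSeq table (27509 probes, 20887 symbols), whose assembly, GRCm38.p6, differs from mm9, so that only names, chromosomes and the order of neighbours were taken from it. Probe positions and sequences were not used here. The 2 start windows come from RefSeq. Precision is limited by the number of arrays.

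The members and the gene lists were chosen with earlier results of these data known. Named were every member, every measured neighbour or partner, and the 3 genes of smallest p of each other list, apart from some genes that are not reported here. Alternatives changed the background correction, normalization, dim-probe filter, dye term, probe choice, array weights and arrays, or used the deposited table.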

Additional observations from a re-analysis of the deposited data

Results flagged for a closer look

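Malat1 had opposite signs in the 2 dye orientations, and its mean ratio on replicates 3 and 4 minus that on replicates 1 and 2 was -1.18. The dye term of the limma fit bears on this and did not pass after adjustment (unadjusted p = 0.00021, adjusted p = 0.144). Among 34 other named genes, 6 had opposite signs in the 2 orientations on all 4 arrays.

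In Pvt1 (A_55_P2051254) the ratio on replicate 1, 0.55, stood apart from 0.26 to 0.30 on the other 3 arrays, and its gap took 0.858 of the whole range, more than Dixon's critical value for 4 samples. In Nedd1 the ratio on replicate 4, 0.24, stood apart in the same way, with a gap of 0.838 of the range. Chance flags about 1 in 20 of such sets, and 52 were examined.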

How the results depend on the processing

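Neat1 kept its call and direction in 15 of 16 alternatives, with ratios of 0.98 to 1.13 over processing and array choices and 1.09 to 1.12 when an array was left out; on the same-sex arrays it was 1.09 without a call. Dlx6os1 kept its direction in all 16 and lost its call with Feature Extraction processed signals and the deposited table (-0.48 each), no background correction (-0.42), no filter on dim probes (-0.41), no dye term (-0.41) and the same-sex arrays (-0.53), and it ranged from -0.51 to -0.31 with an array left out. Pvt1 (A_55_P2051254) lost its call with processed signals and the deposited table (0.27 each), no background correction (0.38), an offset of 16 (0.38), median centring (0.31), no filter (0.35) and the same-sex arrays (0.28), and ranged from 0.27 to 0.42 with an array left out. The second Pvt1 probe was at -0.07 in the deposited table. Malat1 and Snhg1 passed with median centring alone (-0.37 and -0.35), and with an array left out ranged from -0.35 to -0.20 and from -0.37 to -0.18.

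Of the 6 probes, 2 were called higher and 1 lower; under processed signals, the deposited table, no background correction and no filter the counts were 1 and 0, with median centring 1 and 3, with an offset of 16 there was 1 higher, without the dye term 0 lower, and on the same-sex arrays 0 and 0. With an array left out they ranged from 1 to 2 and from 0 to 1. Over the array, 1852 higher and 512 lower became 759 and 226 with processed signals, 761 and 231 with the deposited table, 1050 and 98 without the filter, and 458 and 7 on the same-sex arrays; the lower count was 300 without background correction, 301 without the dye term and 1675 with median centring. Without replicates 1, 3 and 4 the higher count was 2832, 482 and 363, and the lower count ranged from 5 without replicate 4 and 21 without replicate 3 to 721 without replicate 1.

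Paraspeckle genes called lower numbered 0 with processed signals or no filter and 12 with median centring, and 0 to 4 with an array left out. Nuclear speckle genes called lower numbered 0 with processed signals or no filter, 1 without background correction or the dye term, 4 with the filter on both channels and 7 with median centring, and 0 to 2 with an array left out. SnoRNA hosts called lower numbered 0 with processed signals, no background correction, an offset of 16 or no filter and 2 with median centring, and 0 to 1 with an array left out. Neighbours and partners called higher numbered 0 with processed signals, no background correction, median centring or no filter and 2 with the filter on both channels, and 0 to 3 with an array left out; those called lower numbered 1 with processed signals and 0 to 4 with an array left out. Decay factors called higher numbered 0 with processed signals, an offset of 16, median centring, no filter or no dye term, and other noncoding genes called higher 0 with processed signals or no dye term, each 0 to 1 with an array left out. Median centring called 1 other noncoding gene lower, Peg13 (-0.40, adjusted p = 0.0108). Testing without the filter covers 55679 probes, and the same-sex setting has 2 arrays; elsewhere the cause of a lost call was not tested. Each array holds both genotypes, so its ratio already is the pair, and the fit was paired by array without a further pairing.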
